A study of Mus musculus with 2 samples.

Results

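Transporter genes of inorganic ions, bicarbonate, phosphate, ascorbate and organic ions were described in RNA of small-intestinal crypts from mice with and without epithelial Lpcat3. The set holds every solute carrier gene that a probe set with a single gene symbol of the following form reads. The symbol starts with Slc4a, Slc8a, Slc9a, Slc12a, Slc20a, Slc22a, Slc23a, Slc24a, Slc26a, Slc34a or Slc41a plus a number, or with Slco. The Slco genes form the organic anion transporter family. Genes of the Slc families named with a letter other than a were not in the set. This rule gave 92 of 18193 named genes, read by 173 probe sets. Of these, 3 are adaptor proteins that carry a transporter's name (Slc9a3r1, Slc9a3r2 and Slc4a1ap), which leaves 89 members of the transporter families.

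The control array read crypts of Lpcat3 F/F mice, in which the Lpcat3 alleles are flanked by loxP sites but intact. The knockout array read crypts of Lpcat3F/F, Villin-CreERT2 mice, which have the same floxed alleles and a Cre recombinase that the Villin promoter expresses in the intestinal epithelium and that tamoxifen activates. Mice of both groups were 8 to 10 weeks old and were injected with 1 mg of tamoxifen daily over 5 days; crypt isolation followed 2 weeks later. Each genotype was read on 1 array, from RNA of 5 mice combined before hybridisation. There was thus no replicate, no test of genotype and no p-value, and effects of Lpcat3 loss, of Cre itself, of the animals pooled and of the array cannot be told apart. Lpcat3, which encodes an acyltransferase that places polyunsaturated fatty acids into membrane phospholipids, read 4691 in control and 928 in knockout (5.06-fold lower), in the direction of the labels.

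The intestinal epithelium moves salt and water in both directions. Enterocytes absorb sodium chloride through apical sodium-proton exchangers working beside chloride-bicarbonate exchangers, whereas crypt cells secrete chloride that a basolateral sodium-potassium-chloride cotransporter loads into the cell and the channel Cftr releases into the lumen. Other families of the set take up phosphate, ascorbate and carnitine, or carry drugs, bile acids, prostaglandins and hormones as organic anions and cations.

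Of the 92 genes, 40 had a signal at or above the floor of 92.9 on both arrays, 4 only on the control array and 48 on neither array. The floor is the 50th percentile of all array signals and stands in for a detection call, so a gene above it on 1 array has a bound, written as "at least". The 48 genes below it were not measured here, among them the sodium-calcium exchanger genes Slc8a1, Slc8a2 and Slc8a3. Also below it were the kidney phosphate transporters Slc34a1 and Slc34a3, and 11 of the 15 Slco genes. All ratios below are log2 of the knockout signal over the control signal. Pairs of probe sets that read one and the same gene gave the error of a single ratio as 0.28 (SD, 1.21-fold, from 4582 genes). This probe-set error holds no spread between mice or pools. Signals of different genes come from different probes and cannot be set against each other as levels.

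Most measured transporter genes had like signals on both arrays. Of 44, 37 lay within 1.5-fold and 23 within 1 SD of the probe-set error. At least 1.5-fold higher in the knockout pool were 4 of 44 members (9.09%), beside 4.76% of all 11496 measured genes. They were the ascorbate transporter gene Slc23a1, the Slc4 family gene Slc4a11, the orphan transporter gene Slc22a18 and the phosphate transporter gene Slc20a1. At least 1.5-fold lower were 3 of 44 (6.82%), beside 8.74% of all measured genes. These were the phosphate cotransporter gene Slc34a2, the sodium-potassium-chloride cotransporter gene Slc12a2 and the organic anion transporter gene Slc22a13. Slc34a2 and Slc12a2 were also at least 2-fold lower (2.32% of all genes), and 0 of 44 members were at least 2-fold higher (1.41% of all genes). Among the 40 members measured by both arrays, 23 (57.5%) had a ratio above 0 and 17 (42.5%) below 0, with a median of 0.078. Over all 10452 genes measured by both arrays, 45.3% lay above 0 and 54.7% below, with a median of -0.039. A floor at the 30th percentile let in 66 members, of which 6 were past 1.5-fold on the higher side and 11 on the lower side, with a median of -0.0085. With that floor the counts over all genes also rose, from 547 to 1234 higher and from 1005 to 1889 lower. The number of all genes measured at that floor was not counted, so no share of them stands beside the member counts.

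**Figure D1:**
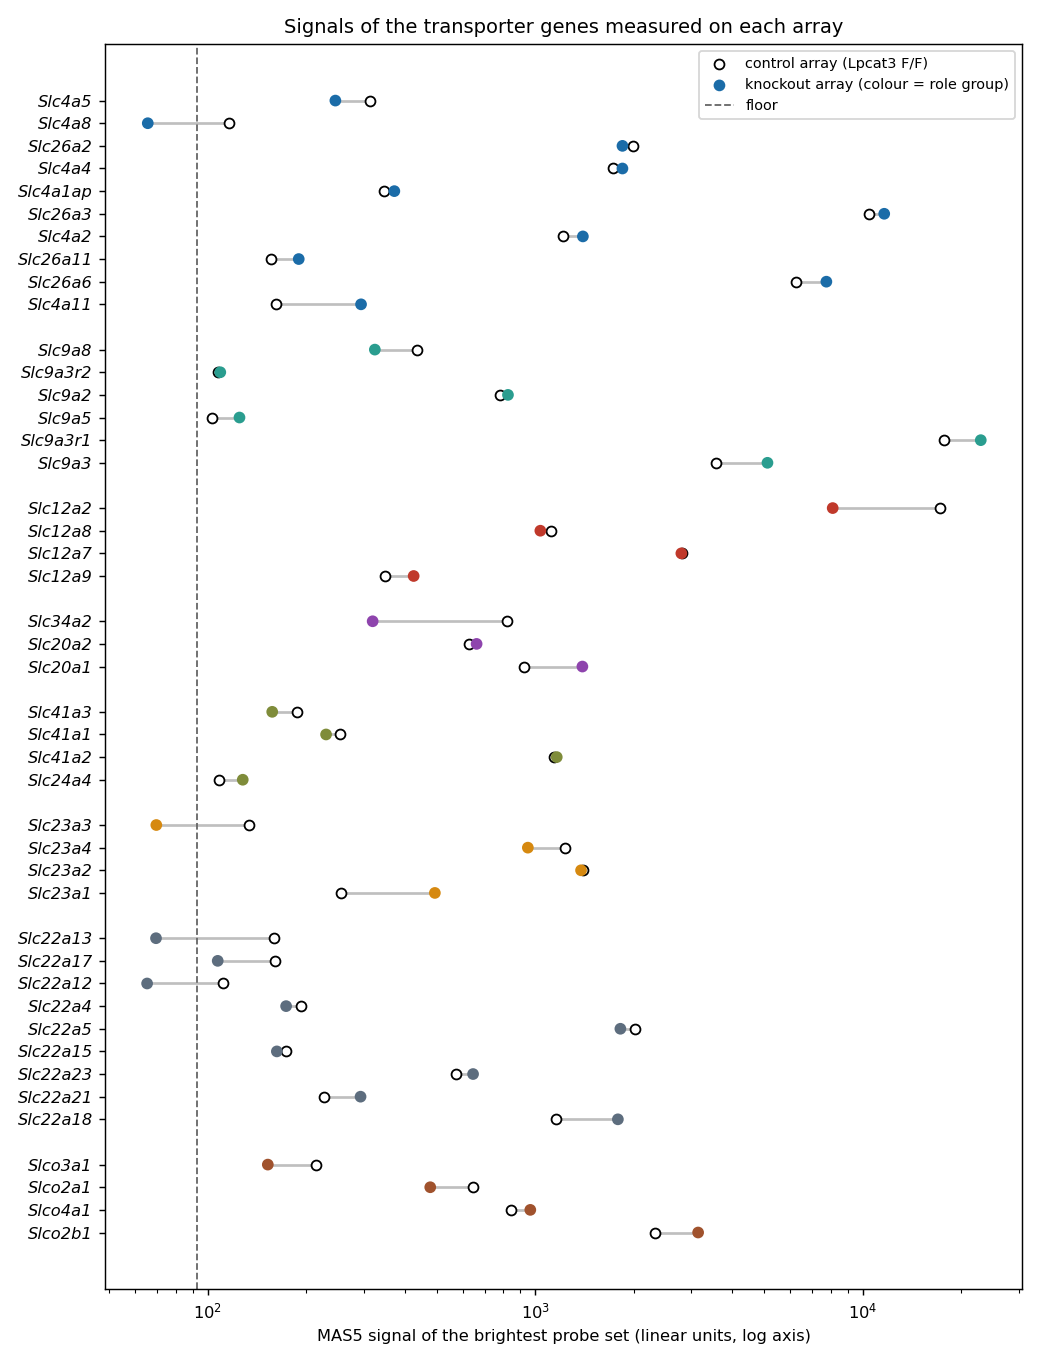
MAS5 signal of each of the 44 measured transporter genes on the control array (open circles) and the knockout array (filled circles, coloured by role group), on a log axis with the floor of 92.9 as a dashed line. Most pairs of circles lie close together, and the longest gaps among genes that both arrays measured are those of Slc34a2, Slc12a2, Slc23a1 and Slc4a11; positions of different genes are not comparable as levels.

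**Figure D2:**
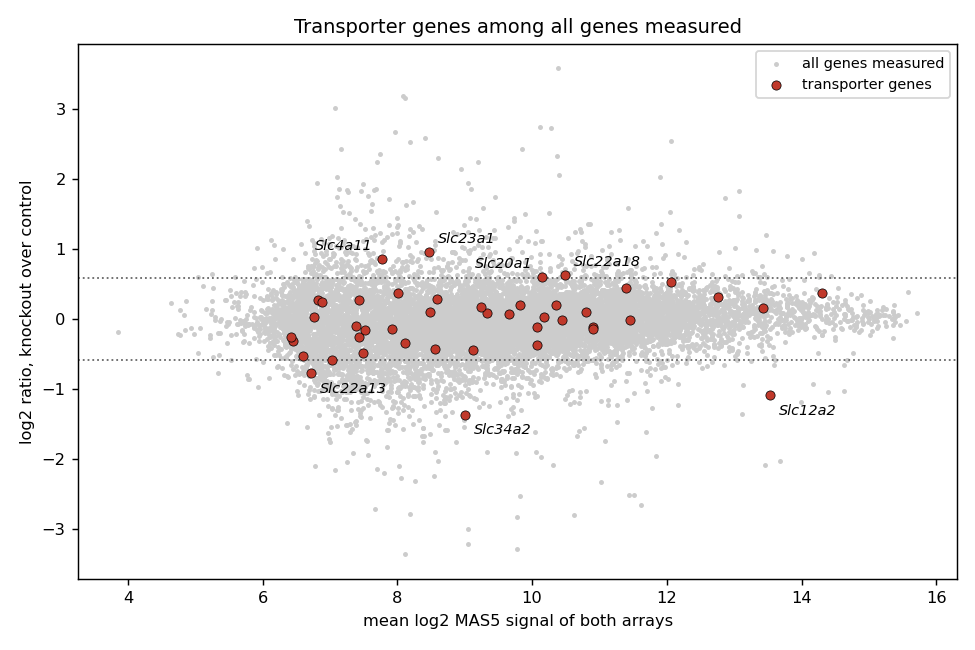
Log2 ratio of knockout over control against the mean log2 signal of both arrays for all 11496 measured genes (grey) and the 44 transporter genes (red); dotted lines mark 1.5-fold. The 7 named transporter genes lie past 1.5-fold, and the cloud of all genes is wider at low signal.

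Exchangers and cotransporters of bicarbonate and other anions were mostly within 1.5-fold. Leaving out the adaptor gene Slc4a1ap (0.10), 9 of 19 genes of the Slc4 and Slc26 families were measured, 1 was higher by 1.5-fold or more and 0 were lower by that much. The median was 0.18 and 6 of the 8 that both arrays measured had ratios above 0. Slc26a3, the apical chloride-bicarbonate exchanger of villus and colon enterocytes, read 10473 in control and 11647 in knockout. Its ratio of 0.15 lay within the probe-set error, and its 3 other probe sets gave 0.064, 0.13 and, close to the floor, 0.058. The brightest probe set is of a type that can bind related transcripts, and the other 3 lay on the same side of 0. Slc26a6, an exchanger of chloride, bicarbonate and oxalate, stood at 6243 in control and 7753 in knockout, a ratio of 0.31 that is just past 1 SD of the probe-set error. The sulphate transporter genes Slc26a2 (1992 in control, 1847 in knockout) and Slc26a11 (156 and 189) had ratios of -0.11 and 0.28.

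The bicarbonate transporters of the Slc4 family lay on both sides of 0. Slc4a4, the sodium bicarbonate cotransporter that brings bicarbonate into secreting cells, read 1727 in control and 1847 in knockout (ratio 0.097). Its 3 other probe sets above the floor gave 0.17, 0.38 and 0.014, all on the same side of 0. Slc4a2, a chloride-bicarbonate exchanger, had signals of 1218 and 1398 (0.20). Slc4a5, another sodium bicarbonate cotransporter gene, was at 312 in control and 245 in knockout (-0.35), and Slc4a8 was at least 1.25-fold lower, from 116 to a signal below the floor (65.5).

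Slc4a11 was the member of this group past 1.5-fold. It is a divergent relative of the bicarbonate transporters, known from the corneal endothelium. It read 162 in control and 294 in knockout, a ratio of 0.86 (1.81-fold higher), 3.08 SDs of the probe-set error. Ratios this high occurred in 2.06% of all measured genes and in 3.54% of the 1669 genes whose signal was like that of Slc4a11. The signal is dim, and with the floor moved to the 70th percentile the gene was not measured.

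Sodium-proton exchangers did not reach 1.5-fold in either direction. Of 7 exchanger genes, adaptors left out, 4 were measured, 3 of these had ratios above 0 and the median was 0.18. Slc9a3, the apical exchanger that carries most sodium absorption in the small intestine, had a signal of 3566 in control and 5123 in knockout. Its ratio of 0.52 (1.44-fold) is 1.87 SDs of the probe-set error, and 6.20% of all measured genes were as high or higher. The second probe set of Slc9a3 was near the floor, at 112 in control and below it in knockout (63.0), and a mean over both probe sets gave 0.12. The adaptor gene Slc9a3r1 encodes the scaffold that ties this exchanger to ezrin at the brush border. It read 17700 in control and 22971 in knockout (0.38), with 0.45 and 0.23 by its other probe sets. Slc9a2, a second apical exchanger, was at 783 and 826 (0.076). Slc9a8, an exchanger of apical and Golgi membranes, had 436 in control and 324 in knockout (-0.43), but its other probe set gave 0.037. Slc9a5 (103 and 125, ratio 0.28) and the adaptor gene Slc9a3r2 (107 and 109, ratio 0.024) were read close to the floor.

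Slc12a2 stood apart from the other cation-chloride cotransporters. It encodes the basolateral sodium-potassium-chloride cotransporter that loads chloride for crypt secretion. It read 17268 in control pool RNA and 8106 in knockout pool RNA, 2.13-fold lower (ratio -1.09). Its other 2 probe sets read 7149 in control against 3142 in knockout (-1.19) and 3648 against 1778 (-1.04). All 3 probe sets were thus at least 2-fold lower, and they spanned 0.15 on the log2 scale. Among the 317 genes of like signal 1.58% were as low or lower, and 1.70% of all measured genes were. In pooled crypt RNA, fewer cells that express a gene and less RNA of it per cell cannot be told apart.

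The other measured genes of the family were near even. Slc12a7, a potassium-chloride cotransporter of basolateral membranes, read 2812 in control and 2796 in knockout (-0.0085). Slc12a9, an orphan member, was at 347 and 425 (0.29). Slc12a8 was at 1119 and 1037 (-0.11), while its dimmer probe set, close to the floor, gave 0.65. The kidney gene Slc12a1 was below the floor on both arrays.

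The phosphate transporters went opposite ways. Slc34a2, the sodium-phosphate cotransporter of the enterocyte brush border, read 822 in control and 319 in knockout, 2.58-fold lower (-1.37). That is 4.89 SDs of the probe-set error and the lowest ratio of the 40 members that both arrays measured. Of all measured genes 90 (0.783%) were as low or lower, and 0.668% of the 2095 genes of like signal. It is read by 1 probe set, so no second reading exists. Slc20a1, a widely expressed sodium-phosphate cotransporter and retrovirus receptor, read 922 in control and 1393 in knockout, 1.51-fold higher (0.60). This lies at the edge of the threshold, and with a pseudocount in place of the floor the ratio was 0.55, under 1.5-fold. Slc20a2, its close relative, was at 626 and 662 (0.080).

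The promoters of the phosphate pair are shown because these genes share a substrate and had opposite ratios. The planned rule took members at least 2-fold higher or lower, so Slc20a1 was added beyond it. No promoter was available for Slc12a2, the other member at least 2-fold lower, nor for Slc23a1 and Slc4a11. RefSeq sequences of GRCm38.p6 from 250 bases before to 50 after the annotated start were searched on both strands for HNF4 (CAAAGTCCA), TCF/LEF (CTTTGAT), AP-1 (TGANTCA), CRE (TGACGTCA), CDX (TTTATGG), SRE (TCACCCCAC), E-box (CACGTG) and GC box (GGGCGG) letters. Capitals mark matches. Slc34a2 lies at chr5:53049103-53049402 on the plus strand and Slc20a1 at chr2:129198523-129198822 on the plus strand, the first of its 2 promoters in the table.
Slc34a2: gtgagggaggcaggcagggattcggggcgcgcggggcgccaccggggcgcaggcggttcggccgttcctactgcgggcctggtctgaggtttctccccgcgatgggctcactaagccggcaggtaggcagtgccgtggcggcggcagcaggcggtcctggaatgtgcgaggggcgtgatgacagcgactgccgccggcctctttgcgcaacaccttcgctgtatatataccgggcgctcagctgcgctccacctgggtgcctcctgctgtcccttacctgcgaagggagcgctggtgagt
Slc20a1: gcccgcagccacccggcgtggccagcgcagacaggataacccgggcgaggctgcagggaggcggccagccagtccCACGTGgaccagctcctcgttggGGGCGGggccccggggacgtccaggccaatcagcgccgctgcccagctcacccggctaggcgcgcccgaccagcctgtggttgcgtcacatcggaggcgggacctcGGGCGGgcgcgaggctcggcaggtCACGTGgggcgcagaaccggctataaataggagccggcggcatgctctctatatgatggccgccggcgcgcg
Both are rich in G and C (68.7% for Slc34a2 and 73% for Slc20a1). In Slc20a1 the E-box letters begin at positions -175 and -22 from the start and the GC box letters at -152 and -46. E-box letters occur in 7.15% and GC box letters in 35.7% of all 32851 promoters of the table. The Slc34a2 window holds none of the 8 motifs. Nor do the windows of Slc22a18, which was higher in knockout, and Slc22a13, which was lower. A relation of these letters to the ratios was not tested.

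Promoters of 77 members were in the same table. The first promoter of each member was taken, whereas the 32851 promoters include further ones of the same genes. Promoters of all genes were not split by the floor, so the split below has no background. The 35 of measured members had a median G and C content of 62.7%, the 42 of members below the floor 48.3%, and the whole set of 32851 promoters 52.7%. GC box letters were present in 21 of the 35 and in 11 of the 42, and E-box letters in 7 and 2. HNF4 and CRE letters were found in 0 of 77, where 0.475% and 1.79% of all promoters hold them. A match describes letters in a window and shows no binding.

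Ascorbate and related carriers were spread on both sides of 0. Slc23a1, the apical sodium-ascorbate cotransporter of absorptive epithelia, read 255 in control and 494 in knockout, 1.93-fold higher (ratio 0.95), the highest ratio of the 40 members that both arrays measured. That is 3.41 SDs of the probe-set error, and 1.58% of all measured genes were as high or higher. Its size depends on the floor, since with the floor at the 70th percentile the control signal lay below it and the gene was at least 0.64 higher on the log2 scale. Slc23a2, the widely expressed ascorbate transporter, was even (1400 in control, 1380 in knockout, ratio -0.020). Slc23a4, which carries nucleobases in rodents, was at 1230 and 950 (-0.37), and the orphan Slc23a3 was at least 1.44-fold lower, from 134 to below the floor.

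Magnesium and calcium transporters differed little. All 4 measured members lay within the probe-set error, with Slc41a1 (254 in control, 230 in knockout) at -0.14, Slc41a2 (1140 and 1164) at 0.030, Slc41a3 (188 and 157) at -0.26 and the potassium-dependent sodium-calcium exchanger gene Slc24a4 (108 and 128) at 0.24. The Slc41 genes encode magnesium carriers.

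Organic ion and carnitine transporters of the Slc22 family also lay on both sides of 0. Of 21, 9 were measured, with 1 past 1.5-fold in each direction, and the 7 that both arrays measured had a median of -0.094. Slc22a18, an imprinted gene whose substrate is not settled, had signals of 1160 in control and 1789 in knockout (0.63, 1.54-fold higher). Its other probe set read 673 and 849 (0.33), and the mean of both was 0.48, under 1.5-fold. Slc22a13, a carrier of nicotinate and urate, had 159 in control and a signal below the floor in knockout (69.4), at least 1.71-fold lower. Slc22a17, a receptor for lipocalin 2, was just inside the threshold at 160 and 107 (ratio -0.58).

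The carnitine and ergothioneine carriers were closer to even. Slc22a5, the main carnitine transporter, read 2018 in control and 1821 in knockout (-0.15), with -0.094 by its other probe set. Slc22a4, the ergothioneine transporter, was at 192 and 173 (-0.15), and Slc22a21, a carnitine transporter found in mice, at 226 and 293 (0.38). The remaining members were Slc22a23 (0.18), Slc22a15 (-0.094) and the urate transporter gene Slc22a12, which was below the floor in knockout.

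Organic anion transporters of the Slco family divided evenly among the 4 measured. Slco2b1, which carries steroid sulphates and many drugs across the enterocyte membrane, read 2320 in control and 3145 in knockout (0.44). That probe set can bind related transcripts, and the other one gave 0.11. Slco4a1, a thyroid hormone transporter, was at 843 and 966 (0.20). Slco2a1, which takes up prostaglandins, was lower at 648 in control and 478 in knockout (-0.44). Slco3a1 had 214 and 152 by its brightest probe set (-0.49) and -0.17 by another, while the third probe set was at least 2.54-fold lower, from 236 to below the floor (82.3). The probe sets of Slco3a1 thus share a direction but differ in size.

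**Figure D3:**
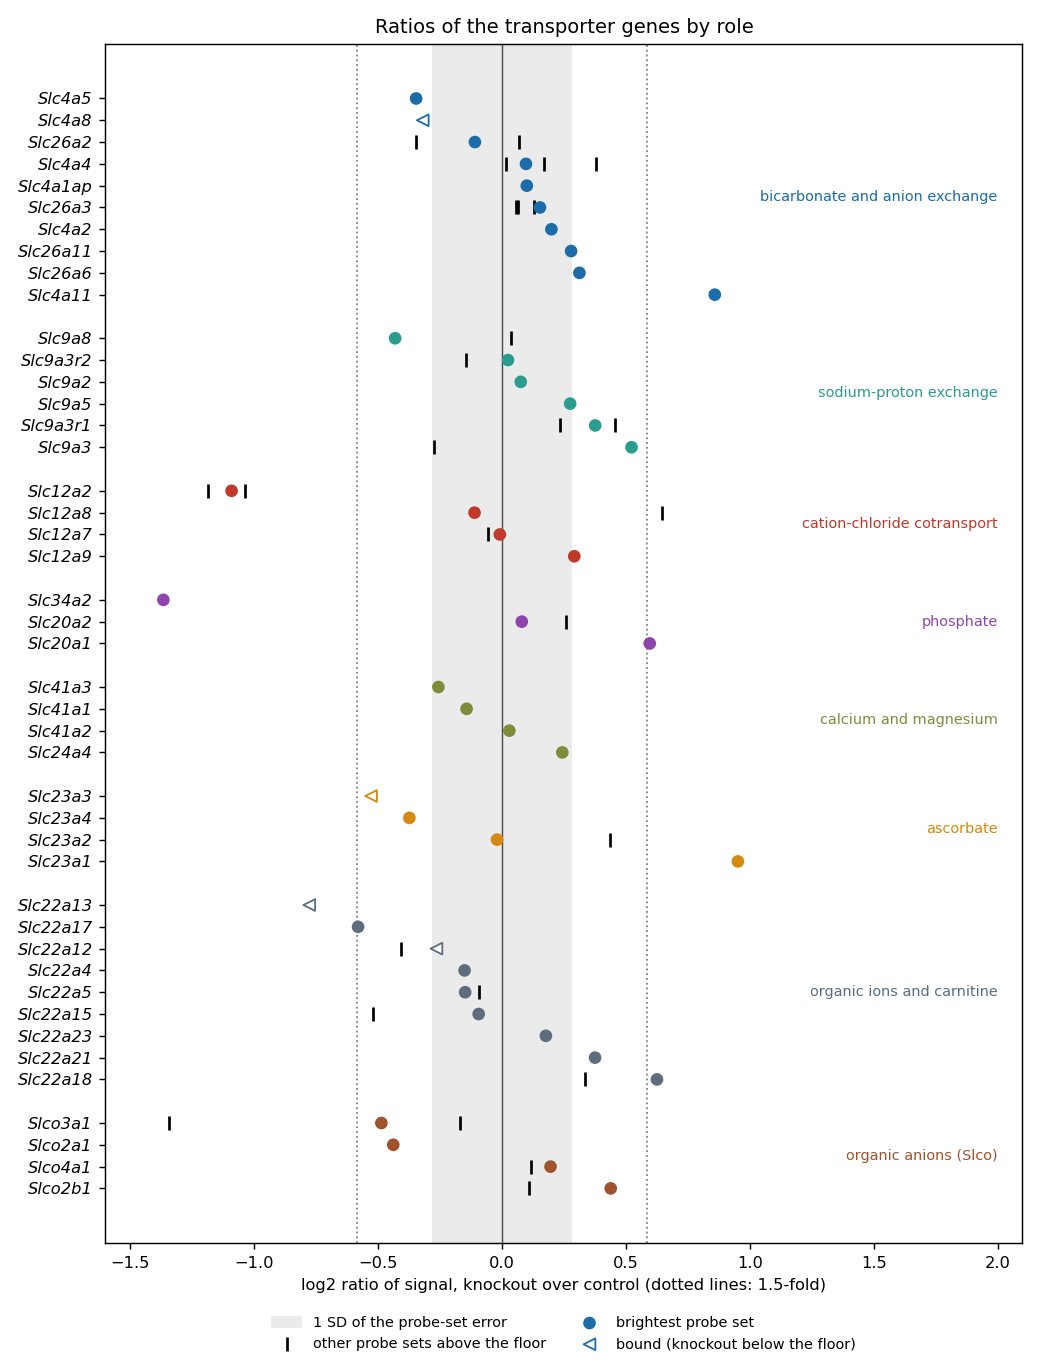
Log2 ratio of knockout over control for the 44 measured transporter genes, in role groups; circles are the brightest probe set, open triangles are bounds with the knockout signal below the floor, and black ticks are other probe sets above the floor on at least 1 array. The grey band is 1 SD of the probe-set error (0.28) and dotted lines mark 1.5-fold; the 3 probe sets of Slc12a2 lie together near -1.1, whereas those of Slco3a1 and Slc12a8 are far apart.

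Where a member could be read more than once, the readings mostly shared a direction. Of 14 members that 2 or more probe sets measured on both arrays, 11 had all ratios on the same side of 0 and 3 did not (Slc12a8, Slc26a2 and Slc9a8). The median distance between the lowest and highest ratio of such a gene was 0.26. Of the 7 members past 1.5-fold, Slc12a2 and Slc22a18 had further probe sets above the floor, and the other 5 rest on 1.

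Other genes of epithelial ion transport were read beside the transporters, each list compared with the same 4.76% and 8.74% of all genes. Among 10 measured genes of apical chloride channels and the guanylin pathway, 1 was at least 1.5-fold higher and 0 were lower by that much. Cftr, the chloride channel of secreting crypt cells, was at 3901 in control and 2869 in knockout (-0.44, 1.36-fold lower). Gucy2c, the guanylin receptor that opens Cftr through cyclic GMP, was at 0.54, and its ligands Guca2a and Guca2b were at -0.17 and -0.29. Ano1, a calcium-activated chloride channel, was at least 1.69-fold higher but was above the floor only by a probe set that can bind related transcripts.

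Of 6 epithelial potassium channels measured, Kcnq1 was the 1 gene past 1.5-fold. This basolateral channel, which recycles potassium during chloride secretion, had signals of 2148 in control and 1047 in knockout (ratio -1.04). Its partner subunit Kcne3 was even (4342 and 4392, ratio 0.017), and Kcnn4, the calcium-activated channel, was at -0.091, with -0.40 by its other probe set. Of the 6 measured sodium pump genes, Fxyd5, a modulator of the pump, was 2.27-fold lower (319 against 140). The beta subunits Atp1b1 (0.17) and Atp1b3 (0.42) lay within 1.5-fold by their brightest probe sets. Other probe sets of Atp1b1 ranged from -0.15 to 0.75. Of 10 measured genes of the carbonic anhydrase family, 0 were past 1.5-fold in either direction by the brightest probe set. Car7 was lowest at -0.55 and Car13 highest at 0.46, with 0.69 by the other probe set of Car13. With the floor at the 30th percentile 3 genes of this family were past 1.5-fold on the higher side. The count over all genes on that side rose with it from 547 to 1234, with no share computed.

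The regulators of sodium uptake held larger differences. Of 7 measured, 2 were past 1.5-fold in each direction. Sgk1, a kinase that aldosterone and glucocorticoids induce and that raises sodium channel and exchanger activity, read 2215 in control and 564 in knockout (-1.97, 3.93-fold lower). Sgk2, its relative, went the other way, from 327 to 893 (1.45, 2.73-fold higher). Scnn1a, the alpha subunit of the epithelial sodium channel, was 2.14-fold lower (443 against 207), and its partners Scnn1b and Scnn1g were below the floor. The channel-activating protease gene Prss8 was 1.58-fold higher. Each of these 4 genes had 1 probe set above the floor.

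Of 14 measured scaffolds and kinases of the transporters, 2 were past 1.5-fold on the lower side and 0 on the higher side. Pdzk1, a brush border scaffold that binds ion transporters, was 1.77-fold lower (1809 against 1024). Stk39, a kinase that activates Slc12a2, was at 805 and 511 (-0.66), but its other probe set gave 0.060. Ezr, the gene of ezrin, was at 0.45, with 1.17 by its other probe set. Calcium, magnesium and phosphate genes outside the families were all within 1.5-fold by their brightest probe sets (10 measured). The 9 that both arrays measured had a median of -0.29. With the floor at the 70th percentile the median of the list was 0.038. The list includes the vitamin D receptor gene Vdr (-0.45) and the calcium-binding protein gene S100g (0.086). Other probe sets ranged from -1.03 to 0.086 for Cnnm3 and from -0.52 to 0.79 for Xpr1.

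Efflux partners of the organic ion carriers had a median of 0.37 over 11 genes, with 2 past 1.5-fold higher and 1 past 1.5-fold lower. Abcb1a, the drug exporter P-glycoprotein, was 2.06-fold higher (2335 against 4803; 1.13 on the log2 scale by its other probe set), and Abcc2, an apical exporter of conjugates, 1.58-fold higher (1666 against 2640). Abcc6 was 2.16-fold lower (334 against 155). Abcc2 was read only by a probe set that can bind related transcripts. With the floor at the 70th percentile, above the knockout signals of Abcc6, Fxyd5 and Scnn1a, these 3 genes have only bounds, which do not reach 1.5-fold. The basolateral exporter of bile acids, Slc51a and Slc51b, was at 0.37 and 0.35.

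**Figure D4:**
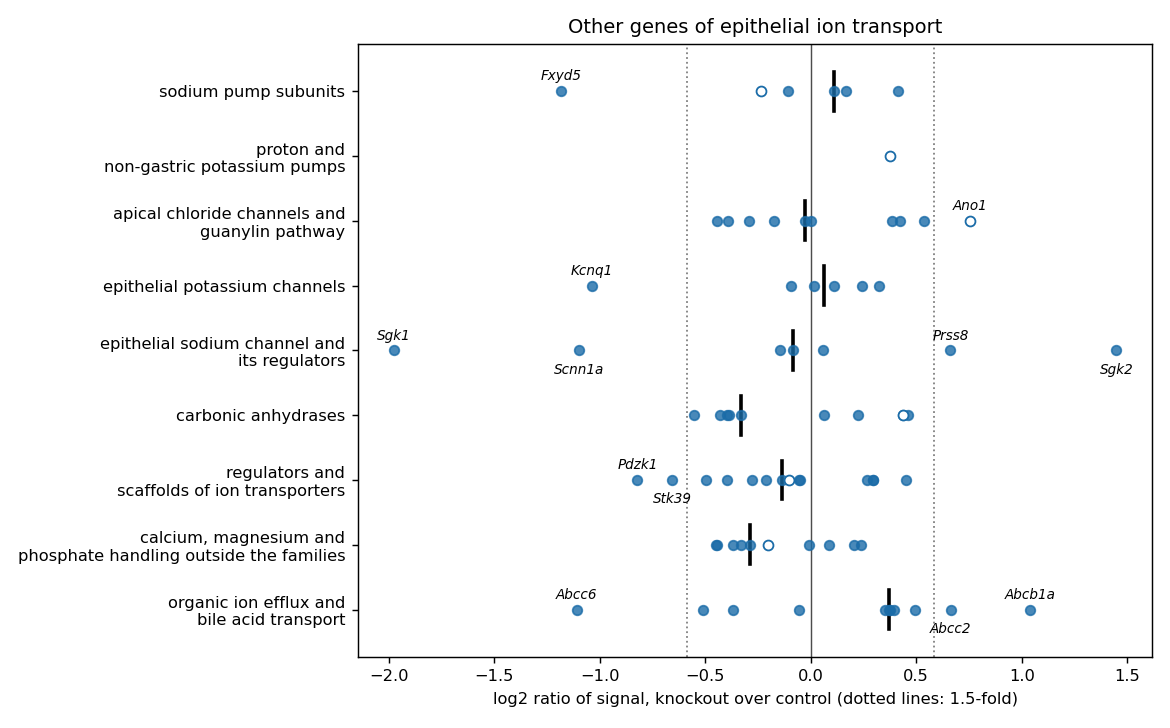
Log2 ratio of knockout over control for measured genes of 9 lists of epithelial ion transport outside the transporter families; filled circles are above the floor on both arrays, open circles are bounds, and black bars are list medians over the filled circles. Genes past 1.5-fold (dotted lines) are named, with Sgk1 lowest at -1.97 and Sgk2 highest at 1.45.

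Cell markers differed between the same pools. Checked against the crypt label, crypt base markers were measured on both arrays, with Olfm4 at 32027 in control and 21348 in knockout, as were Paneth cell markers, with Lyz1 at 46003 and 38133. The villus enterocyte gene Apoa4 was measured too (27480 and 27142). Sums of signals are given per list below. They add different probes, so the brightest genes lead them and they are no level of a cell type. All 6 crypt base stem cell markers had ratios below 0, 4 of them at least 1.5-fold lower, and their summed signal was 38018 in control and 24854 in knockout. Olfm4 makes up most of that sum, and Lgr5 had the lowest ratio of the list (814 in control, 171 in knockout, 4.75-fold lower). All 5 Paneth markers were below 0, 4 by at least 1.5-fold (sum 112255 and 69717). Of 9 villus enterocyte markers 6 were above 0, with 1 past 1.5-fold higher and 2 past 1.5-fold lower (sum 212963 and 234798). Tuft cell markers were below 0 in 5 of 5, 4 of them at least 1.5-fold lower (sum 2716 and 1322), and enteroendocrine markers in 7 of 8, with 5 past 1.5-fold on the lower side and 1 on the higher side (sum 14815 and 9597). Of 5 proliferation markers 4 were below 0, 2 by at least 1.5-fold (sum 24651 and 19079). The 5 proximal small-intestinal markers had 2 past 1.5-fold lower, with Lct at -1.36, and 1 past 1.5-fold higher (sum 19247 and 10825). Lct, which is also in the villus list, read 14250 in control and 5543 in knockout and makes up most of that sum. Of 3 measured distal markers Osr2 was at least 1.62-fold lower, while Slc51a (0.37) and Slc51b (0.35) lay above 0 (list sum 3615 and 4501). The distal markers Fabp6 and Slc10a2 were below the floor on both arrays. All 7 goblet cell markers lay within 1.5-fold by their brightest probe sets (sum 158944 and 146676), but the other probe set of Agr2 gave 1.33. Of 6 macrophage and dendritic cell markers 1 was past 1.5-fold, on the higher side. By their brightest probe sets the 9 T and NK cell markers were all at least 2-fold lower (sum 42822 and 8786). Other probe sets of Cd8a ranged from -1.80 to 0.33. Of 5 B and plasma cell markers 4 were at least 1.5-fold higher (sum 1171 and 4007), and Jchain (593 in control, 2974 in knockout) makes up most of that sum. Of 10 markers of stroma, muscle and vessels 7 were below the floor on both arrays, as were both red blood cell markers read here. Of the 3 measured, Acta2 was 1.69-fold higher (120 in control, 203 in knockout) and Des was at least 1.62-fold lower. The part of these shifts in cell markers in the ratios of Slc12a2, Slc34a2 and the other transporter genes was not tested.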

How the data were processed

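The authors deposited linear signal intensity values of 45101 probe sets on 2 arrays, summarised by MAS5 according to the labels, with no version stated. Trimming 2% at each end gave a mean of 500.003 on both, so the intensities were used as deposited. The series' design text names a smaller array than these probe sets belong to. Of the non-control probe sets, 34945 carried 1 gene symbol and named genes; 932 with several and 9160 with none did not. Each gene was read from the probe set with the highest mean log2 signal. Signals under the floor (50th percentile) were raised to it before log2 ratios were taken in Python 3.11.15 with pandas 2.3.3, checked on simulated data. The number of arrays limits the precision. The members and lists were chosen with earlier results of these data known. The naming rule took members past 1.5-fold, the 15 brightest and opposite pairs, and allowed list genes past 1.5-fold or among the 3 highest or lowest of a list, of which the text gives a part; other members and list genes were added for their roles after their values were seen. Listed genes without a probe set of 1 symbol were not analysed here.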

Additional observations from a re-analysis of the deposited data

How the results depend on the processing

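No paired analysis was possible because only 1 array exists per genotype, which also means that none could be left out. Under 9 alternatives for floor, scaling, probe sets and membership, the count of members at least 1.5-fold lower was 3 and became 11 with the floor at the 30th percentile, where 66 members were measured, and that of members at least 2-fold lower went from 2 to 5. With the same floor the count of all genes at least 1.5-fold lower rose from 1005 to 1889, with no share of the genes measured computed. Members at least 2-fold higher were 0, and 1 after quantile normalisation and 1 after lowess. The other counts of members stayed within 1.5 times. The median of members lay between -0.0085 and 0.12. Slc12a2, Slc34a2 and Slc23a1 kept their direction and 1.5-fold in all 8 alternatives that change their values, and Slc4a11 and Slc22a13 in the 7 that measured them. Slc20a1 and Slc22a18 each dropped under 1.5-fold in 1 of 8. Of 335 recomputed ratios of single members, 8 moved by more than the probe-set error and no called ratio changed sign. Among the partner genes, Stk39 changed sign to 0.060 without probe sets ending in _s_at or _x_at.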
